A study of Mus musculus with 8 samples.

Results

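The chromatin regions described here are the ATAC-seq peaks at the loci of Nr4a1, Nr4a2 and Nr4a3, which encode the NR4A family of nuclear receptors. They were chosen by position on genome build mm9, as every peak of the deposited table that touched a window around each gene, of 55 kb on chromosome 15 for Nr4a1, 80 kb on chromosome 2 for Nr4a2 and 90 kb on chromosome 4 for Nr4a3. These windows held 21 of the 74207 peaks, with 11 at Nr4a1, 6 at Nr4a2 and 4 at Nr4a3. Peaks are numbered here within each locus in the order of rising coordinates. All 21 lay above the filter on low values and were among the 66786 peaks tested.

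Macrophages were grown from the bone marrow of 2 C57Bl/6 mice of wild-type genotype, in CMG medium with fetal bovine serum, and each mouse gave 1 library to each of 4 groups. Unstimulated cells received nothing. Fenoterol, an agonist of the β2 adrenergic receptor, was given at 1 µM for 15 min, and LPS, a bacterial lipopolysaccharide sensed by Toll-like receptor 4, at 100 ng/mL for 1 h. The combined group had 15 min of fenoterol followed by 1 h of LPS, so its cells were taken later after the agonist than the fenoterol group. Depth, as the sum of reads in peaks, was lowest for unstimulated mouse 1, with 1426873, and 3164446 to 4040292 for the other 7 libraries. The shallow one touches every comparison with unstimulated cells. Values are averages over a cell population, in which fewer open cells and less opening per cell cannot be told apart. The labelled cell type was not checked against marker genes, because no gene annotation of build mm9 was used here.

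NR4A receptors are orphan members of the nuclear receptor family that work without a known physiological ligand, so their activity depends mainly on how much of each protein a cell makes. All are immediate early genes: they are transcribed soon after a signal, without new protein synthesis. The β2 adrenergic receptor couples to Gs and raises cAMP, protein kinase A then phosphorylates CREB, and CREB bound at cAMP response elements (CREs) is a textbook inducer of this family. In macrophages LPS also induces them. Nr4a1 (Nur77) is known for restraining inflammatory gene expression and for its need in patrolling monocytes, Nr4a2 (Nurr1) for its role in dopamine neurons and for repressing inflammatory genes in microglia, and Nr4a3 (NOR-1) for acting beside Nr4a1 in myeloid cells.

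The promoters of the 3 genes are shown because the CRE letters they share are the known binding letters of CREB. Sequences are the 250 bases upstream of the annotated start in RefSeq, written 5′ to 3′ along the gene, with each CRE half-site TGACG, or CGTCA where it lies on the other strand, in capitals.
Nr4a1 (GRCm38.p6, chr15:101266596-101266845, plus strand): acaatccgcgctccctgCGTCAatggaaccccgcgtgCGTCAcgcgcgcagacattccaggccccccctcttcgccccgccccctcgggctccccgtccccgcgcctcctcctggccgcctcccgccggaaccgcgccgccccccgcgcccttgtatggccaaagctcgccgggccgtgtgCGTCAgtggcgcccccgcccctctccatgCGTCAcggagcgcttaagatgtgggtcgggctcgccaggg
Nr4a2 (GRCm38.p6, chr2:57124004-57124253, minus strand): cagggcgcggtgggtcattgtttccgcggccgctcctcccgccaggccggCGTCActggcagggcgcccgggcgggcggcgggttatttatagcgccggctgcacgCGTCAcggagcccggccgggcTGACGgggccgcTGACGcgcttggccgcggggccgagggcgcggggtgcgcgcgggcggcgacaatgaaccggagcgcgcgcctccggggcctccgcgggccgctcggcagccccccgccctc
Nr4a3 (GRCm38.p6, chr4:48045055-48045304, plus strand): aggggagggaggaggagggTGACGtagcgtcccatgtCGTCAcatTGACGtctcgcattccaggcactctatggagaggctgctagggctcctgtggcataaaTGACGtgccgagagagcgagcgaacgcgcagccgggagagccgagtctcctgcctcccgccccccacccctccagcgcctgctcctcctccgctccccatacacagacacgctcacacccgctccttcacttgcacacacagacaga
Each promoter held 4 half-sites. Of 32851 upstream windows of the same length in the RefSeq table, 17.8% held at least 1 half-site and 0.137% held at least 4. The half-site contains CG, and these promoters are rich in G and C, at 74.4% for Nr4a1, 80.0% for Nr4a2 and 63.6% for Nr4a3 against a median of 52.4%. Whether the counts exceed those of promoters of like composition was not tested. In Nr4a1 the half-sites began 233, 213, 69 and 40 bases before the start, in Nr4a2 200, 144, 123 and 111, and in Nr4a3 231, 213, 205 and 147. The full palindrome TGACGTCA was in none of the 3 windows and in 1.55% of all. The AP-1 element TGANTCA (6.75% of all) and the element bound by NR4A receptors themselves, AAAGGTCA (1.34%), were also in none of the 3. A match of letters is a description and shows no bound factor. These coordinates are of another build than the peaks, so the promoters were not placed on peaks and the peaks were not sorted into promoter, intron and intergenic sites. By gene order in the same RefSeq release, the nearest protein-coding neighbours are Grasp and Atg101 for Nr4a1, Kcnj3 and LOC105244150 for Nr4a2, and Sec61b and Stx17 for Nr4a3.

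The loci were open in all groups, with peaks of very different height. Levels are RPKM after scaling, that is reads in a peak set against its length in kb and the reads in all peaks of the library. The highest of the 21 was Nr4a3 peak 1 (chromosome 4, 48055595 to 48056619), with a mean over the 8 libraries of 112 RPKM, above 99.8% of all peaks in the table. Nr4a1 peak 3 (chromosome 15, 101076533 to 101077237) was the highest of its locus at 74.3 RPKM, and Nr4a2 peak 6 (chromosome 2, 56975672 to 56976887), the widest of all at 1216 bp, the highest of its locus at 65.1 RPKM. The lowest was Nr4a3 peak 4 (48113232 to 48113431) at 12.7 RPKM, followed by Nr4a2 peak 2 (56960781 to 56961081) at 13.9 RPKM. Widths ran from 200 to 1216 bp. Nr4a1 had the densest set, with 9 peaks between 101071139 and 101097452 and a further pair after a gap of 16271 bp.

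Nr4a3 peak 1 stood at 131 and 103 RPKM in unstimulated cells of mouse 1 and mouse 2, 114 and 107 with fenoterol, 111 and 103 with LPS, and 112 and 112 with both. The group means of this peak spanned 107 to 117 RPKM, within the SD of 19.6 between the unstimulated libraries. Nr4a1 peak 3 stood at 92.2 and 68.3 RPKM unstimulated, 81.5 and 82.8 with fenoterol, 66.3 and 63.1 with LPS, and 67.8 and 72.1 with both, so the unstimulated pair spanned all other values of that peak except the LPS pair and 1 combined library. Nr4a2 peak 6 stood at 65.1 and 58.9 RPKM unstimulated, 77.5 and 69.1 with fenoterol, 70.8 and 62.4 with LPS, and 56.1 and 61.0 with both; its fenoterol pair lay above the unstimulated and the combined pair.

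**Figure D1:**
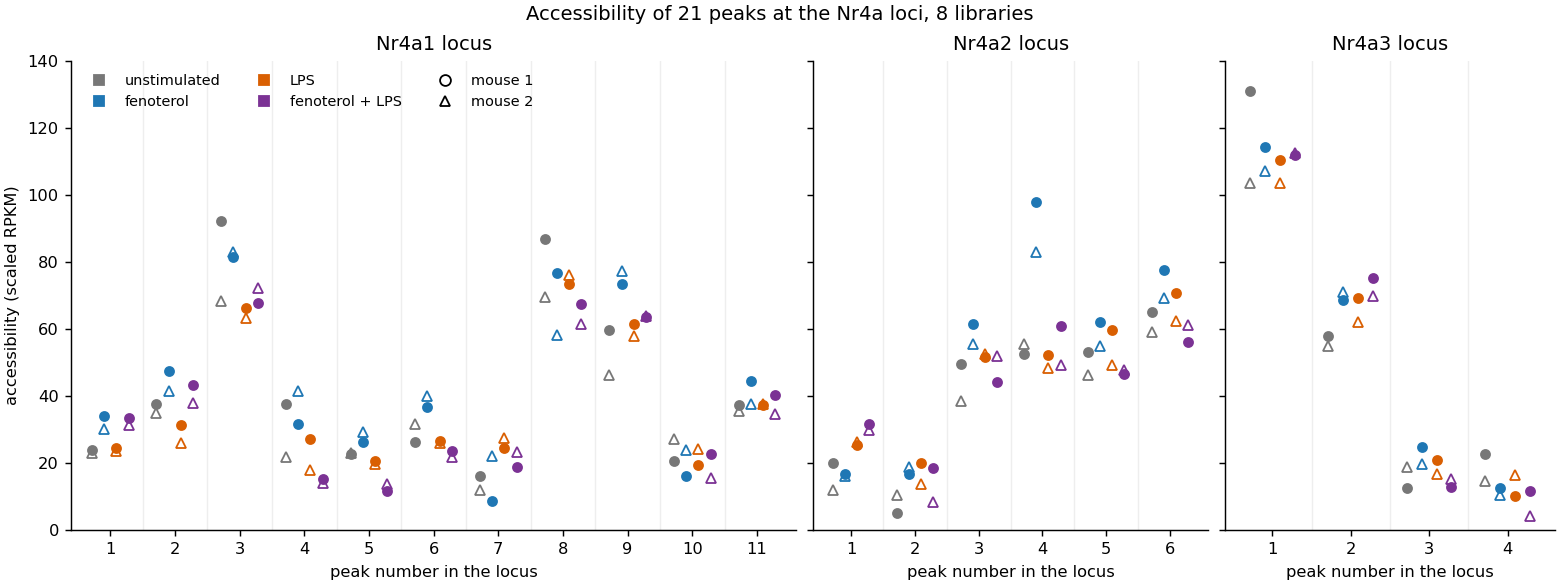
Accessibility (scaled RPKM, linear axis) of each of the 21 peaks, numbered along each locus, with 1 point per library, colour for the group and shape for the mouse. Nr4a2 peak 4 shows both fenoterol libraries, at 98.0 and 83.0 RPKM, above the other 6 libraries, which lie at or below 60.8 RPKM.

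Summed over its peaks, the Nr4a2 locus held more reads with fenoterol than in any other group. In RPM, which is the same measure without the division by peak length, it had 194 and 174 in unstimulated cells of mouse 1 and mouse 2, 259 and 230 with fenoterol, 212 and 195 with LPS, and 193 and 193 with both. Both fenoterol libraries were above the other 6. The Nr4a1 locus had 235 and 199 RPM unstimulated, 246 and 241 with fenoterol, 210 and 206 with LPS, and 212 and 204 with both. Its fenoterol pair was again above the other 6 libraries, though the next, unstimulated mouse 1, was close at 235. The Nr4a3 locus had 173 and 144 unstimulated, 164 and 156 with fenoterol, 159 and 147 with LPS, and 160 and 157 with both, and no group stood clear of the rest.

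Fenoterol alone for 15 min was compared with no stimulus, which asks what the agonist does to these cAMP-responsive loci by itself. At this time 13 of the 21 peaks had both fenoterol libraries above both unstimulated ones, 6 at Nr4a1, 5 at Nr4a2 and 2 at Nr4a3, and 1, Nr4a3 peak 4, had both below. Among all tested peaks these shares were 15.1% and 17%. The median log2 change (of scaled RPKM + 4, the scale of all changes below) was 0.25 over the members, 0.31 at Nr4a2, 0.25 at Nr4a1 and 0.11 at Nr4a3, against -0.02 over all tested peaks, and 17 of the 21 changes were above 0, against 46.6% of all. None of the 21 passed the threshold by limma-trend (adjusted p under 0.05), where 0.00749% of all tested peaks did. At an unadjusted p under 0.05 there were 7 of 21, against 7.43% of all. Voom on recovered reads called 1 member higher, Nr4a2 peak 4, and 0.0449% of all peaks.

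Nr4a2 peak 4 (chromosome 2, 56968781 to 56969533) had the smallest p of the members. It stood at 52.6 and 55.6 RPKM unstimulated, 98.0 and 83.0 with fenoterol, 52.3 and 48.3 with LPS, and 60.8 and 49.3 with both. The fenoterol pair lay above the other 6 libraries; the LPS pair was just below the unstimulated pair, and the combined pair overlapped both. Its reads were 53 and 174 unstimulated and 235 and 243 with fenoterol. The exact 95% Poisson intervals, which cover counting error only, were 39.4 to 68.8 and 47.6 to 64.5 RPKM unstimulated, and 85.9 to 111 and 72.9 to 94.1 RPKM with fenoterol. Fenoterol against unstimulated gave a 1.62-fold difference on the scale of RPKM + 4 (log2 0.70, SE 0.14, 95% interval 0.40 to 1.00), higher in both mice by log2 0.85 and 0.55. The limma-trend adjusted p was 0.176, that of voom 0.00802, that after quantile normalization 0.00306, and without the unstimulated library of mouse 2 it was 0.00637, in a fit that called 5.3% of all peaks. Over all 17 alternatives the adjusted p ran from 0.00306 to 0.922 and the log2 change from 0.57 to 0.81, always higher with fenoterol.

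The neighbours of that peak leaned the same way without passing the test. Nr4a2 peak 3 (56966729 to 56967604) stood at 49.5 and 38.4 RPKM unstimulated and at 61.3 and 55.5 with fenoterol (log2 0.39, adjusted p = 0.579 by limma-trend), and peak 5 (56969944 to 56970323) at 53.2 and 46.3 against 62.1 and 54.9 (log2 0.22, adjusted p = 0.768). In both, the fenoterol pair was above the unstimulated pair. Nr4a2 peak 2 had the highest estimate, 0.94, but rested on 2 reads in unstimulated mouse 1 and 13 in mouse 2, against 16 and 22 with fenoterol (adjusted p = 0.557, and 0.0357 without unstimulated mouse 2). Nr4a2 peak 1 was the only one of the locus whose groups overlapped, at 19.9 and 11.9 RPKM unstimulated and 16.7 and 16.1 with fenoterol.

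At Nr4a1 the smallest p was at peak 9 (chromosome 15, 101096853 to 101097452), at 59.8 and 46.1 RPKM unstimulated, 73.3 and 77.2 with fenoterol, 61.4 and 57.9 with LPS, and 63.7 and 63.8 with both. Its fenoterol pair was above all other libraries (log2 0.49 against unstimulated, SE 0.14, adjusted p = 0.451 by limma-trend; 0.0114 after quantile normalization). At Nr4a3 the smallest p was at peak 2 (chromosome 4, 48057672 to 48058175), at 57.9 and 54.9 RPKM unstimulated and 68.6 and 71.0 with fenoterol (log2 0.29, SE 0.13, adjusted p = 0.666). Within mouse 1, 13 of the 21 members were higher with fenoterol and within mouse 2, 18, where 46.2% and 49.4% of all tested peaks were. Leaving out the unstimulated library of mouse 2 left 13 of 21 estimates above 0 in place of 17, against 46.2% of all peaks. The median of the members was then 0.16 in place of 0.25. Leaving out the unstimulated library of mouse 1 gave 18, against 49.1% of all, and a median of 0.29.

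**Figure D2:**
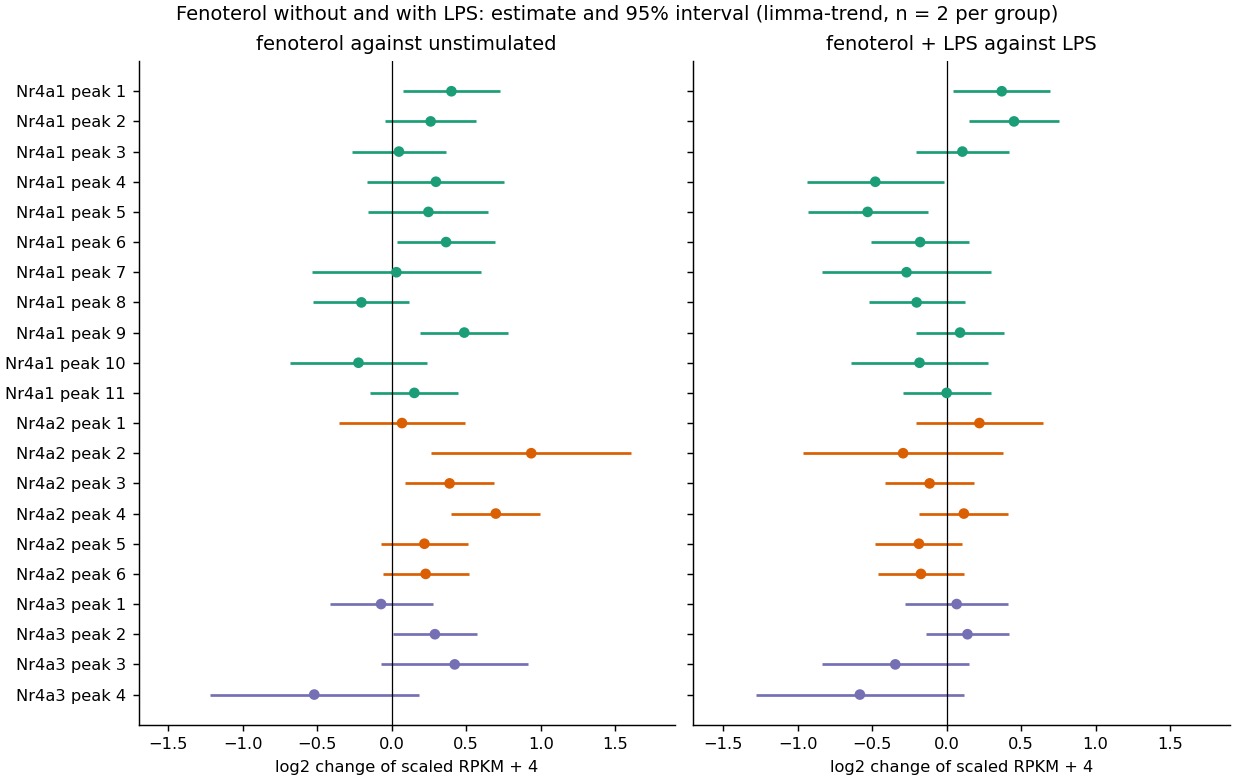
Log2 change of scaled RPKM + 4 at each member for fenoterol against unstimulated (left) and fenoterol + LPS against LPS (right), with points for estimates and lines for 95% intervals from limma-trend. Nr4a2 peak 4 is at 0.70 on the left and 0.12 on the right, and Nr4a1 peaks 4 and 5 are above 0 on the left and at -0.48 and -0.53 on the right.

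Cells given fenoterol and then LPS were compared with cells given fenoterol alone. These groups differ both in LPS and in the time since the agonist, and the parts of LPS and time cannot be told apart. The libraries with fenoterol alone also enter the comparison above, so a high value there lowers the value here. By limma-trend 5 of the 21 peaks passed the threshold, where 13.7% of all tested peaks did; 1 rose and 4 fell, against 9.43% and 4.32% of all. The 4 that fell were Nr4a1 peaks 4, 5 and 6, which lie next to each other, and Nr4a2 peak 4. The 1 that rose was Nr4a2 peak 1. Voom called these 5 in the same directions, with 12.6% of all peaks higher and 6.56% lower. The libraries of the groups did not overlap at 11 members, 1 higher and 10 lower, where 27.1% and 30.3% of all peaks were so separated. Changes were above 0 at 5 of 21 members, against 46.5% of all, and their median was -0.23 against -0.03.

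Nr4a1 peak 4 (101078522 to 101078721) went from 31.5 and 41.3 RPKM with fenoterol to 15.2 and 14.0 with both, beside 37.5 and 21.7 unstimulated and 27.0 and 17.7 with LPS. On the scale of RPKM + 4 it fell to 0.464 times the fenoterol value (log2 -1.11, SE 0.22, adjusted p = 0.00178), lower in both mice, and the combined pair was below the other 6 libraries. This 200 bp peak is shallow, with 10 and 12 reads in the combined libraries. Nr4a1 peak 5 (101083089 to 101083352) stood at 22.7 and 22.8 RPKM unstimulated, 26.2 and 29.3 with fenoterol, 20.4 and 19.6 with LPS, and 11.5 and 13.8 with both. Its combined pair was likewise below all others (log2 -0.93 against fenoterol, SE 0.19, adjusted p = 0.00245). Nr4a1 peak 6 (101084331 to 101084846) stood at 26.1 and 31.7, 36.6 and 39.9, 26.4 and 25.8, and 23.5 and 21.7 RPKM in the same order, with the fenoterol pair highest and the combined pair lowest (log2 -0.67, SE 0.16, adjusted p = 0.00647). The calls of peaks 4 and 5 were kept under all 17 alternatives. Peak 6 missed the threshold when mouse 2 was left out of the fenoterol group (adjusted p = 0.0615) or of the combined group (0.0768).

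At Nr4a2 peak 4 the combined level of 55.1 ± 8.14 RPKM was below the 90.5 ± 10.6 with fenoterol (SD, n = 2; log2 -0.68, SE 0.14, adjusted p = 0.00276) and near the 54.1 ± 2.12 of unstimulated cells. This call was lost without the fenoterol library of mouse 1 (0.0725) and without the combined library of mouse 2 (0.103). Nr4a2 peak 1 (56954827 to 56955353), the member farthest toward low coordinates, went the other way: 19.9 and 11.9 RPKM unstimulated, 16.7 and 16.1 with fenoterol, 25.3 and 26.3 with LPS, and 31.7 and 29.7 with both. All 4 libraries with LPS were above all 4 without. Its rise against fenoterol was 1.70-fold on the scale of RPKM + 4 (log2 0.76, SE 0.20, adjusted p = 0.0148), and the call was lost without any 1 of the 4 libraries of these groups. The count of 5 became 3 without the fenoterol library of mouse 1 and 2 without the combined library of mouse 2, fits in which 5.81% and 5.78% of all peaks were called in place of 13.7%.

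**Figure D3:**
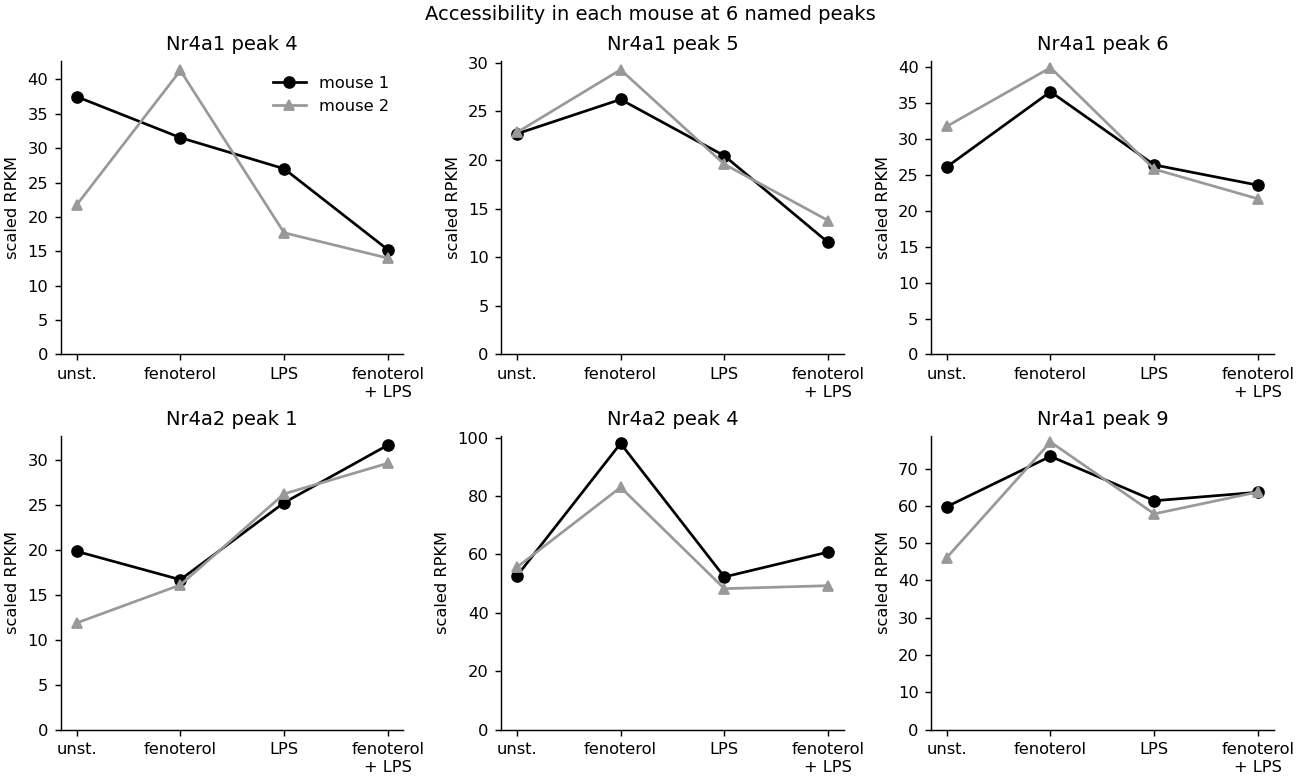
Accessibility (scaled RPKM, axis from 0) in the 4 groups at 6 named peaks, with a line joining the libraries of each mouse. At Nr4a1 peaks 4, 5 and 6 the combined group is lowest in both mice, at Nr4a2 peak 4 and Nr4a1 peak 9 the fenoterol libraries are the highest, and at Nr4a2 peak 1 the 4 libraries with LPS, from 25.3 to 31.7 RPKM, are above the 4 without.

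**Figure D4:**
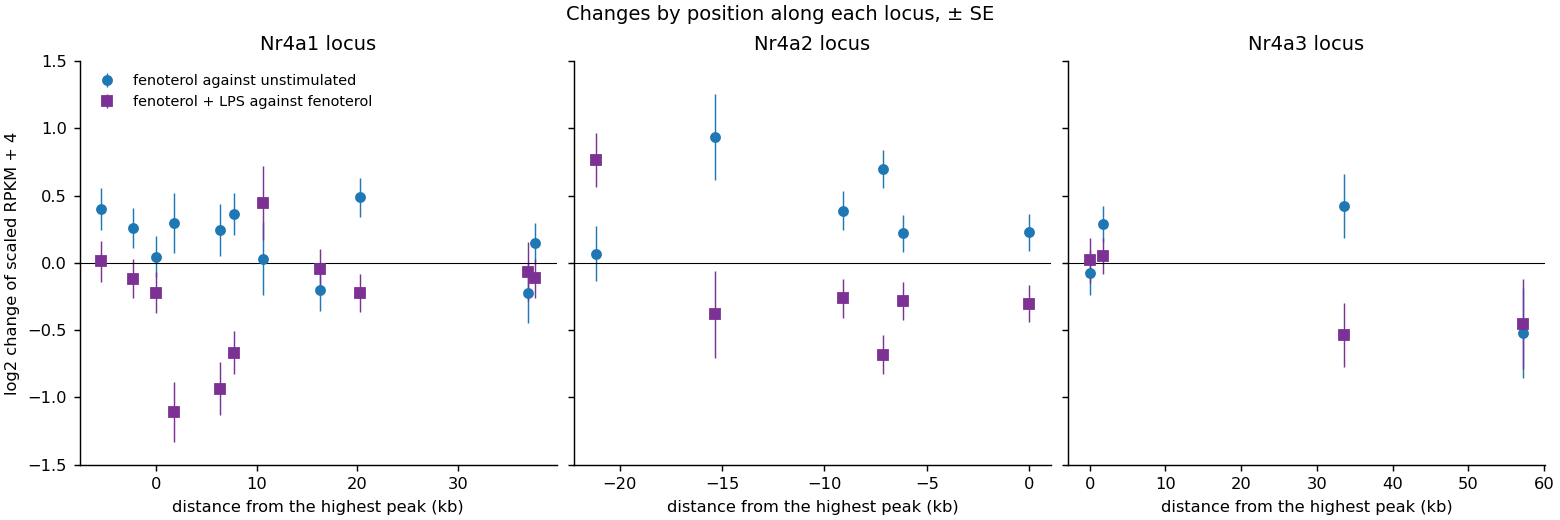
Log2 change (scaled RPKM + 4, estimate ± SE) of each member by its distance in kb from the highest peak of its locus, for fenoterol against unstimulated (circles) and fenoterol + LPS against fenoterol (squares). The lowest squares at Nr4a1, -1.11, -0.93 and -0.67, belong to the neighbouring peaks 4, 5 and 6.

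LPS alone for 1 h, compared with no stimulus, left every member short of the threshold by limma-trend, where 10.1% of all tested peaks passed. At an unadjusted p under 0.05 there were 4 members (24.1% of all tested peaks), and 6.53% of all peaks were called higher and 3.54% lower. The groups did not overlap at 6 members with higher and 4 with lower values, where 23.5% and 26.4% of all peaks were so separated. Voom called 2 higher, Nr4a1 peak 7 and Nr4a2 peak 1, with 7.37% of all peaks higher by the same test. Nr4a1 peak 7 (101087306 to 101087632) stood at 16.0 and 11.8 RPKM unstimulated, 8.66 and 22.1 with fenoterol, 24.3 and 27.4 with LPS, and 18.6 and 23.1 with both. The LPS pair was above the unstimulated pair, while the fenoterol pair spread over a wide range (log2 0.75 for LPS against unstimulated, SE 0.27, adjusted p = 0.089; 0.0288 by voom). For Nr4a2 peak 1 the same contrast gave log2 0.61 (SE 0.20, adjusted p = 0.061; 0.00361 by voom). The estimates of the other 19 members ran from -0.39 at Nr4a3 peak 4 to 0.85 at Nr4a2 peak 2, the latter with an adjusted p of 0.105. Without the unstimulated library of mouse 2 the count was 4, with 1 higher and 3 lower, but 19% of all peaks were called in that fit, and it was 0 or 1 without any 1 of the other 7.

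The average LPS effect sets the 4 libraries with LPS against the 4 without, with fenoterol as a term, and shares all its libraries with the comparisons above. It called 6 of the 21 members, 2 higher and 4 lower, where 13% and 9.91% of all tested peaks were called. The 2 that rose were Nr4a2 peak 1 (log2 0.69, SE 0.14, adjusted p = 0.00139) and Nr4a1 peak 7 (log2 0.60, SE 0.19, adjusted p = 0.0301). By voom the same 6 were called, with 14.9% of all peaks higher and 11.4% lower. Those that fell were Nr4a1 peak 4 (log2 -0.72, adjusted p = 0.00526), peak 5 (-0.55, 0.0169) and peak 6 (-0.40, 0.0263), and Nr4a2 peak 4 (-0.39, 0.0183). In the same order, LPS alone against unstimulated gave only -0.33, -0.16, -0.12 and -0.10, none past the threshold. Fenoterol + LPS against fenoterol gave -1.11, -0.93, -0.67 and -0.68, so most of each average came from the cells given fenoterol. In those cells the time since the agonist also differs between libraries with and without LPS, and its part cannot be told apart. The groups of 4 libraries did not overlap at 1 of the 21 members with higher and 1 with lower values, where 12.3% and 11.3% of all peaks were so separated. These were Nr4a2 peak 1, higher in every library with LPS, and Nr4a1 peak 5, lower in every one. Both were also called from these same libraries, so their separation is no further evidence. Nr4a2 peak 1 and Nr4a1 peak 4 were called in all 16 alternatives. The other 4 calls each depended on single libraries, and the count was 2 without the fenoterol library of mouse 1 or the combined library of mouse 2, and 3 without the fenoterol library of mouse 2 or the combined library of mouse 1. The share of all peaks called in these 4 fits was 16.8% to 19.4%, in place of 22.9%. No Nr4a3 peak was called, with estimates from -0.42 to 0.13.

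The effect of the agonist on LPS-stimulated cells was measured as fenoterol + LPS against LPS. No member passed the threshold by limma-trend and none by voom, where 0% of all tested peaks passed by limma-trend, and 0.614% were higher and 0.0449% lower by voom. At an unadjusted p under 0.05 there were 4 members, all at Nr4a1, against 6.66% of all tested peaks. The 4 went opposite ways by position. Peaks 1 and 2 were higher: peak 1 (101071139 to 101071738) at 24.6 and 23.5 RPKM with LPS and 33.3 and 31.2 with both (log2 0.37, 95% interval 0.05 to 0.69, adjusted p = 0.689), and peak 2 (101074464 to 101074663) at 31.3 and 25.9 against 43.2 and 37.8 (log2 0.45, 95% interval 0.15 to 0.76, adjusted p = 0.522). Peaks 4 and 5 were lower, by log2 -0.48 (95% interval -0.94 to -0.02) and -0.53 (-0.93 to -0.13), with adjusted p of 0.73 and 0.599. In all 4 the libraries of the groups did not overlap, among 7 members with higher and 8 with lower values that were so separated, where 20.7% and 20.9% of all peaks were. The 4 were picked by p from these same libraries, so their separation is no further evidence.

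For the other loci these intervals show what size of difference the data allow. At Nr4a2 peak 4 the difference between combined and LPS was 0.12 with a 95% interval of -0.18 to 0.41. The 0.70 at this peak with fenoterol alone has its own 95% interval, 0.40 to 1.00, and the intervals overlap. The test of whether these 2 differences differ is the interaction below, which this peak did not pass (adjusted p = 0.682 by limma-trend). The smallest p at Nr4a2 was at peak 5, at 59.7 and 49.3 RPKM with LPS and 46.7 and 47.8 with both (log2 -0.19, adjusted p = 0.912). The smallest at Nr4a3 was at peak 4, at 9.95 and 16.3 RPKM against 11.4 and 4.20, where 3 to 12 reads per library make the value imprecise (log2 -0.58, 95% interval -1.28 to 0.12, adjusted p = 0.827).

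Whether the LPS response differed with fenoterol was tested by the interaction term. None of the 21 passed by limma-trend or by voom, where 0% of all tested peaks passed by limma-trend, and 0.0015% were higher and 0.00449% lower by voom. At an unadjusted p under 0.05 there were 7 members, 3 at Nr4a1, 3 at Nr4a2 and 1 at Nr4a3, against 6.33% of all in either direction. All 7 had an estimate below 0, that is a lower log2 change for LPS with fenoterol than without. At Nr4a1 peaks 4, 5 and 6 and Nr4a2 peak 4 both LPS changes were below 0, with the larger fall after fenoterol. At Nr4a2 peaks 2 and 3 and Nr4a3 peak 3 the change was above 0 without fenoterol and below 0 with it. The share of all peaks with an unadjusted p under 0.05 and an interaction below 0 was not counted. The libraries with fenoterol alone enter here too, so a high value there lowers the interaction. The smallest p by locus was at Nr4a2 peak 4 (log2 -0.58, SE 0.20, adjusted p = 0.682), Nr4a1 peak 5 (-0.78, SE 0.27, adjusted p = 0.691) and Nr4a3 peak 3 (-0.77, SE 0.34, adjusted p = 0.763). Nr4a3 peak 3 (48089518 to 48089938) stood at 12.4 and 18.9 RPKM unstimulated, 24.6 and 19.6 with fenoterol, 20.9 and 16.8 with LPS, and 12.6 and 15.3 with both. Its combined pair was below its fenoterol and LPS pairs. The median interaction over the members was -0.30, and -0.45 at Nr4a2, against 0.02 over all tested peaks, and 6 of 21 were above 0, against 52.2% of all. Within the interaction the time since the agonist differs between the fenoterol groups, and its part in these values cannot be told apart.

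**Figure D5:**
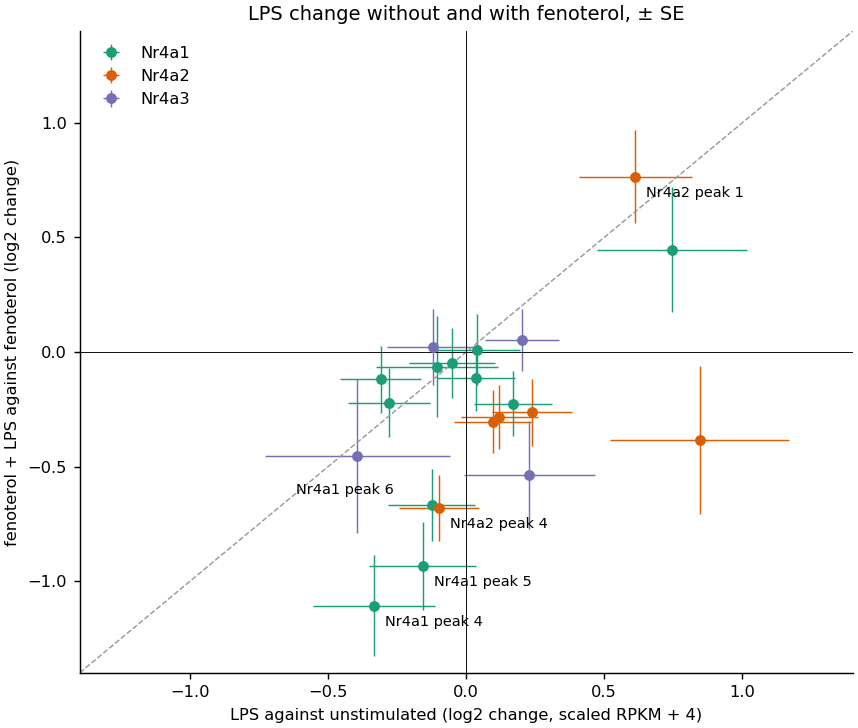
LPS change without fenoterol (x axis, LPS against unstimulated) and with it (y axis, fenoterol + LPS against fenoterol) at each member, as log2 of scaled RPKM + 4 with ± SE bars; the dashed line marks equal changes and names mark peaks past the threshold on the y axis. Nr4a2 peak 1 lies near the line at 0.61 and 0.76, and Nr4a1 peaks 4, 5 and 6 and Nr4a2 peak 4 lie below it. The change on the y axis also holds a difference in time since the agonist.

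Averaged over both LPS states, fenoterol left no member past the threshold by limma-trend, where 0% of all tested peaks passed. At an unadjusted p under 0.05 there were 6 members, against 7.3% of all. Among them only Nr4a3 peak 4 was lower with fenoterol (log2 -0.55, SE 0.23, adjusted p = 0.649 by limma-trend). At 3 peaks, Nr4a1 peaks 1, 2 and 9, all 4 libraries with fenoterol were above all 4 without, where 1.11% of all tested peaks had such separation; at 0 they were below, against 1.03%. Nr4a1 peak 1 was at 23.7 and 22.9 RPKM unstimulated and 24.6 and 23.5 with LPS, against 34.0 and 30.0 with fenoterol and 33.3 and 31.2 with both (log2 0.39, SE 0.11, adjusted p = 0.438). For LPS this peak gave a log2 of 0.04 without fenoterol and 0.01 with it. Nr4a1 peak 2 was at 37.5 and 35.0 RPKM unstimulated and 31.3 and 25.9 with LPS, against 47.3 and 41.3 with fenoterol and 43.2 and 37.8 with both (log2 0.36, SE 0.10, adjusted p = 0.46). Voom called 1 member higher, Nr4a2 peak 4 (adjusted p = 0.042; log2 0.41, SE 0.12 and adjusted p = 0.438 by limma-trend), with 0.202% of all peaks higher and 0.0314% lower. The smallest p at Nr4a3 was at peak 2, with 75.3 and 69.8 RPKM in the combined group (log2 0.21, SE 0.09, adjusted p = 0.646).

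At the edges of the windows, the first member of Nr4a1 lay 1.14 kb inside and the nearest peak beyond it 2.32 kb outside, with means of 27.9 and 18.2 RPKM. Against unstimulated cells, that outside peak changed by log2 -0.84 with fenoterol and -0.74 with LPS, where the first member changed by 0.40 and 0.04. The nearest outside peaks at the other edges changed by -0.18 to 0.22 with fenoterol and -0.19 to 0.14 with LPS. The last member of Nr4a3, at 12.7 RPKM, lay 6.57 kb inside, and the next peak, at 11.9 RPKM, 1.48 kb outside. For Nr4a2 the next peaks were 772 kb before and 17.6 kb after the window. Over the 8 libraries, the peak elsewhere whose profile was most like that of Nr4a1 peak 3 lay on chromosome 9 at 100296169 to 100296501 (Pearson r = 0.995). For Nr4a2 peak 6 it lay on chromosome 15 at 99096112 to 99096318 (r = 0.978), and for Nr4a3 peak 1 on chromosome 9 at 113573469 to 113574054 (r = 0.99). The next most alike had r = 0.989, 0.968 and 0.988 in the same order. These are the top values among all other tested peaks over only 8 libraries, which come from 2 mice and differ in depth, and are given as a description only.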

How the data were processed

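Build mm9 and the tools HOMER, MACS2, Bowtie2 and cutadapt, without versions, are named per the submitters' processing notes. Not given in the sources used here are the handling of duplicates, of mitochondrial reads and of the Tn5 cut-site shift, and whether libraries were pooled for peak calling. The deposited table, made by the authors, gives RPKM per peak and library for 1 peak set shared by the 8 libraries. Multiplied by peak length, 100% of values came within 0.01 of whole multiples of 1 step per library, so reads per peak were recovered. Since each library is set against its own reads in peaks, these values cannot show a change shared by every peak.

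Each library's RPKM were divided by a median-ratio size factor (0.94 to 1.04), peaks with a mean below 9.62 RPKM, the bottom 10%, were not tested, and log2(value + 4) was fitted in limma 3.58.1 (R 4.3.3) with a mean trend over all 8 libraries. Fold changes on this scale understate those of low peaks. P-values were adjusted by Benjamini-Hochberg over 66786 peaks, threshold 0.05; 2 mice per group limit them, and the spread shared over peaks counts as 16.4 degrees of freedom against 4 residual ones. The average effects came from an additive fit. Limma voom on recovered reads was an alternative. Same-numbered libraries come from the same mouse per the labels; differences between the mice correlated at 0.0223 to 0.0713 across groups. The members, lists and comparisons were chosen with earlier results of these data known. Peaks named with values in every library are the highest of each locus, those past the threshold, and those with the smallest p in the interaction and the comparisons of fenoterol with unstimulated, of both with LPS and of fenoterol on average; other peaks given with values were chosen after theirs were seen. CMG is as the labels name the medium.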

Additional observations from a re-analysis of the deposited data

How the results depend on the processing

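Counts of members past the threshold are given here for the 21 peaks, or 16 with the windows narrowed by 10 kb at each end. The narrowed windows leave out Nr4a1 peaks 1 to 4 and Nr4a3 peak 4. With them the count was 4 for fenoterol + LPS against fenoterol, 5 for the average LPS effect and 0 for every other comparison. For LPS against unstimulated, 0 became 1 on the values as deposited, 2 by voom, 1 with only the 4 libraries compared (chosen after seeing the data), and 0 to 4 leaving out each library in turn (3.09% to 19% of all tested peaks, in place of 10.1%). For fenoterol against unstimulated, 0 became 2 after quantile normalization, 1 by voom, and 0 to 2 leaving out each library. For fenoterol + LPS against fenoterol, the 5 became 2 to 6 leaving out each library (5.78% to 19.4% of all peaks, in place of 13.7%), and for the average LPS effect the 6 became 2 to 6 (16.8% to 24.4%, in place of 22.9%). The average fenoterol effect went from 0 to 1 by voom, which called 0.234% of all peaks. The share of all peaks called for LPS against unstimulated was 9.78% on the values as deposited, 11.7% by voom and 7.67% with only the 4 libraries. For fenoterol + LPS against LPS and the interaction the count was 0 under every alternative run. The mouse as a replicate block gave 7 for the average LPS effect in place of 6, with 23.7% of all peaks called, and changed no other count. That count was also 7 on the values as deposited (22.8% of all peaks) and after quantile normalization (25%). Quantile normalization gave 6 in place of 5 for fenoterol + LPS against fenoterol (17%). The blocked limma-trend adjusted p of Nr4a2 peak 4 for fenoterol against unstimulated was 0.0947. The 5 peaks called for fenoterol + LPS against fenoterol and the 6 called for the average LPS effect kept their direction under every alternative run. Of all tested peaks, fenoterol against unstimulated called 0.00749%, but 0.0449% after quantile normalization, 0.0479% by voom and 5.3% without unstimulated mouse 2; fenoterol + LPS against LPS called 0%, but 0.659% by voom and 0.383% with only the 4 libraries. Omissions that leave 1 library in a group take its spread from the other groups, and why the counts moved was not tested. The planned quasi-likelihood count test was not run, because the deposited unit is RPKM. Depth limits peaks of few reads, such as Nr4a3 peak 4 with 3 to 12 reads per library.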
